A study of Homo sapiens with 6 samples.

Results

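The 31 genes described here make, import, sense and move cholesterol. They were chosen by name, as the enzymes from acetyl-CoA to cholesterol, the proteins that hold or release the transcription factor SREBP2, lipoprotein uptake genes, and genes of sterol transport and storage. All 31 had a row among the 60683 genes of the count table, and all 31 passed the filter on low counts, as did 15846 genes in all. Total RNA of the human osteosarcoma line 143B, which descends from HOS cells, was sequenced in 2 groups. There were 3 libraries from cells given TPBC-PEG and 3 from cells given PBS, each for 24 h. For TPBC-PEG a dose of 3 µM stands in the titles and one of 300 µM in the protocol, so the dose is not settled. The series title and design text name photodynamic therapy (PDT), in which a compound forms reactive oxygen species under light, but the labels of the samples name no light exposure. The extraction protocol speaks of animal tissue, whereas the other labels give cultured cells. All libraries come from this single line. Separate cultures are not stated for the libraries of a group, so p-values measure the spread between these libraries, which may be technical.

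Cells hold their cholesterol steady by feedback on transcription. When the membrane of the endoplasmic reticulum is low in sterol, SCAP carries SREBP2 to the Golgi, where proteases release its active part, which enters the nucleus and switches on genes for cholesterol synthesis and uptake. When sterol is plentiful, INSIG proteins hold SCAP and SREBP2 in the endoplasmic reticulum. A second arm, the nuclear receptor LXR, responds to oxysterols and raises genes for cholesterol export and for the loss of lipoprotein receptors.

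The libraries held 15726323 to 20486584 counts. Across genes, Pearson's r of log2 CPM, counts scaled to the library total, was 0.992 to 0.993 within groups and 0.985 to 0.988 between them. Of 10 osteoblast lineage markers 6 reached 1 CPM, while SP7, BGLAP and COL1A2 were near 0 and IBSP had no count. The summed level of that list was 464 to 500.2 CPM with TPBC-PEG and 502 to 521 CPM with PBS, and its members moved both ways, with SPP1 and RUNX2 higher (log2 fold changes of 0.79 and 0.55) and COL1A1 and SPARC lower (-0.48 and -0.18). Of 5 epithelial markers 3 reached 1 CPM, KRT18, KRT8 and EPCAM, and the summed level of the list was 679 to 742 CPM with TPBC-PEG and 902 to 942 CPM with PBS. The part of these differences in the results below was not tested. Markers of leukocytes and endothelium summed to under 1 CPM in each library, and those of red cells had no count.

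Promoter sequences of the genes were read from RefSeq (GRCh38.p14), which held windows from 250 bases before to 50 bases after a transcript start for 27 of the 31 genes, 34 windows in all. The stretches printed here run from 250 to 111 bases before the start, 5′ to 3′ on the gene's strand. Some CCAAT matches of the printed genes lie closer to the start and so are not shown. They stand 106 to 102 bases before the start in SREBF2 and 100 to 96 in HMGCS1. In MSMO1 they stand 76 to 72 and 34 to 30 bases before it. They are those of INSIG1, STARD4, MSMO1 and HMGCS1, which are among the 5 genes with the largest called rises, and that of SREBF2, the gene of SREBP2 itself. Capitals mark CCAAT, the box bound by NF-Y, and CACNCCAC, the core of the sterol regulatory element, on either strand (on the opposite strand CCAAT reads ATTGG). The SREBF2 stretch lies within an exon of the antisense gene SREBF2-AS1 in GENCODE, and the others hold no annotated exon. NPC1, also among those 5, is not printed because its stretch lies in an annotated NPC1 exon. The NPC1 window held GC boxes but neither CCAAT nor CACNCCAC, and the same holds for the window of a second HMGCS1 start, so the printed stretches do not stand for all windows of the top genes.
INSIG1, chr7:155297628-155297767, plus strand: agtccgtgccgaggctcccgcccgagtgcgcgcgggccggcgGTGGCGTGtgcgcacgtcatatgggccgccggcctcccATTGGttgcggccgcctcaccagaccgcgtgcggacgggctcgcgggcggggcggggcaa
STARD4, chr5:111512646-111512785, minus strand: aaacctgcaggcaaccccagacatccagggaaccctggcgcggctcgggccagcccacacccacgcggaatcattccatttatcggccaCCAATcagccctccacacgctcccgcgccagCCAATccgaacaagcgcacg
MSMO1, chr4:165327419-165327558, plus strand: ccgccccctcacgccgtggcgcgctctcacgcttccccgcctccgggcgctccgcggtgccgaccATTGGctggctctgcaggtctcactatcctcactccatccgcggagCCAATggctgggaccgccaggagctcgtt
HMGCS1, chr5:43313523-43313662, minus strand: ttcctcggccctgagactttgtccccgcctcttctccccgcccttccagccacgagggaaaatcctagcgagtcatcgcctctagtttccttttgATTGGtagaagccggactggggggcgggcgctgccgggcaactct
SREBF2, chr22:41832855-41832994, plus strand: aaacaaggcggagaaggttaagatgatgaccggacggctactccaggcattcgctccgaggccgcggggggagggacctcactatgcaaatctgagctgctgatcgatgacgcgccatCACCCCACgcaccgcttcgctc

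CCAAT stood in 22 of the 34 windows (64.7%), which belong to 20 genes, against 34.6% of the 35116 windows in the RefSeq table. The box was not confined to genes that rose. It also stood in windows of MVK, FDPS, EBP, NSDHL, LSS, NPC2, TMEM97, SOAT1 and TM7SF2, which did not pass, and of MYLIP, which fell. Windows of INSIG2, VLDLR and NPC1, which rose, held no CCAAT. ACAT2, FDFT1, SQLE and ERLIN1 had no window, so FDFT1 and SQLE, which also rose, were not examined. CACNCCAC stood in 6 windows (17.6%), of INSIG1, IDI1, SC5D, SREBF2 and ABCA1, against 5.87% of all windows. The SC5D windows overlap and share that site. The longer form TCACNCCAC was found in 1 window, that of SREBF2, 133 to 125 bases before the start, and in 1.13% of all windows. GGGCGG, the GC box, stood in 32 windows (94.1%) against 45.0% of all. No window of these genes held TGATGNAA, a form of the amino acid response element, or the endoplasmic reticulum stress element (CCAAT and CCACG with 9 bases between them), which were found in 3.62% and 0.0769% of all windows. All motifs were searched on both strands, the core and the longer form overlap, and the stress element begins with CCAAT. The windows used for comparison were not matched for GC content or expression, and overlapping windows of a gene were counted separately. Whether any excess is particular to these genes was therefore not tested. A match is a run of letters and does not show binding.

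**Figure D1:**
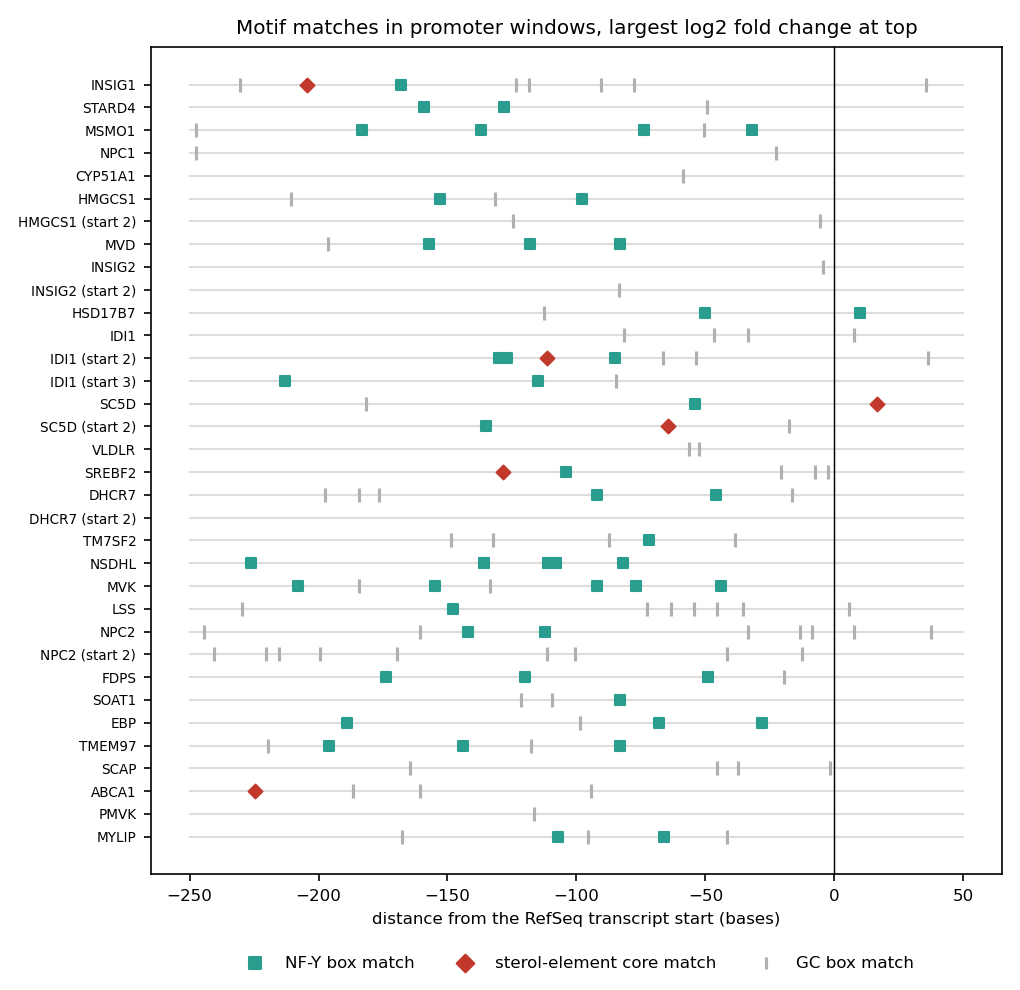
Matches to the NF-Y box (squares), the sterol-element core (diamonds) and the GC box (bars) in the 34 promoter windows of 27 genes, by distance in bases from the RefSeq transcript start. Genes run from the largest log2 fold change (TPBC-PEG over PBS) at the top to the lowest, and matches to the NF-Y box stand in 22 windows.

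The comparison asks which of these transcripts differ after TPBC-PEG. Cells given TPBC-PEG had higher mRNA of INSIG1, the feedback brake on SREBP2, of the sterol carrier STARD4, of the sterol enzyme MSMO1, of the lysosomal cholesterol exporter NPC1 and of HMGCS1, which feeds the mevalonate pathway. Of the 31 genes 15 rose and 3 fell (edgeR quasi-likelihood test, Benjamini-Hochberg adjusted p under 0.05 over 15846 genes), so 18 were called, while of all genes tested 16.2% were called higher, 16.9% lower and 33.2% in either direction. In bulk libraries, a change in the share of cells that express a gene and a change in its RNA per cell cannot be told apart. The rises ran from 1.14-fold for FDFT1 to 1.86-fold for INSIG1. The falls were those of MYLIP, SCAP and ERLIN1. The median log2 fold change was 0.19 over the 31 genes and 0.011 over all genes tested. The 3 TPBC-PEG values lay wholly above the 3 PBS values for 16 of the 31 genes and wholly below them for 5, against 22.1% and 21.4% of all genes tested, 43.4% in either direction. Summed over the 31 genes, the level was 1741, 1741 and 1681 CPM with TPBC-PEG and 1455, 1481 and 1463 CPM with PBS. These sums part the groups with no overlap. The genes were chosen with earlier results of these data known, so the sums are a description and no separate support.

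**Figure D2:**
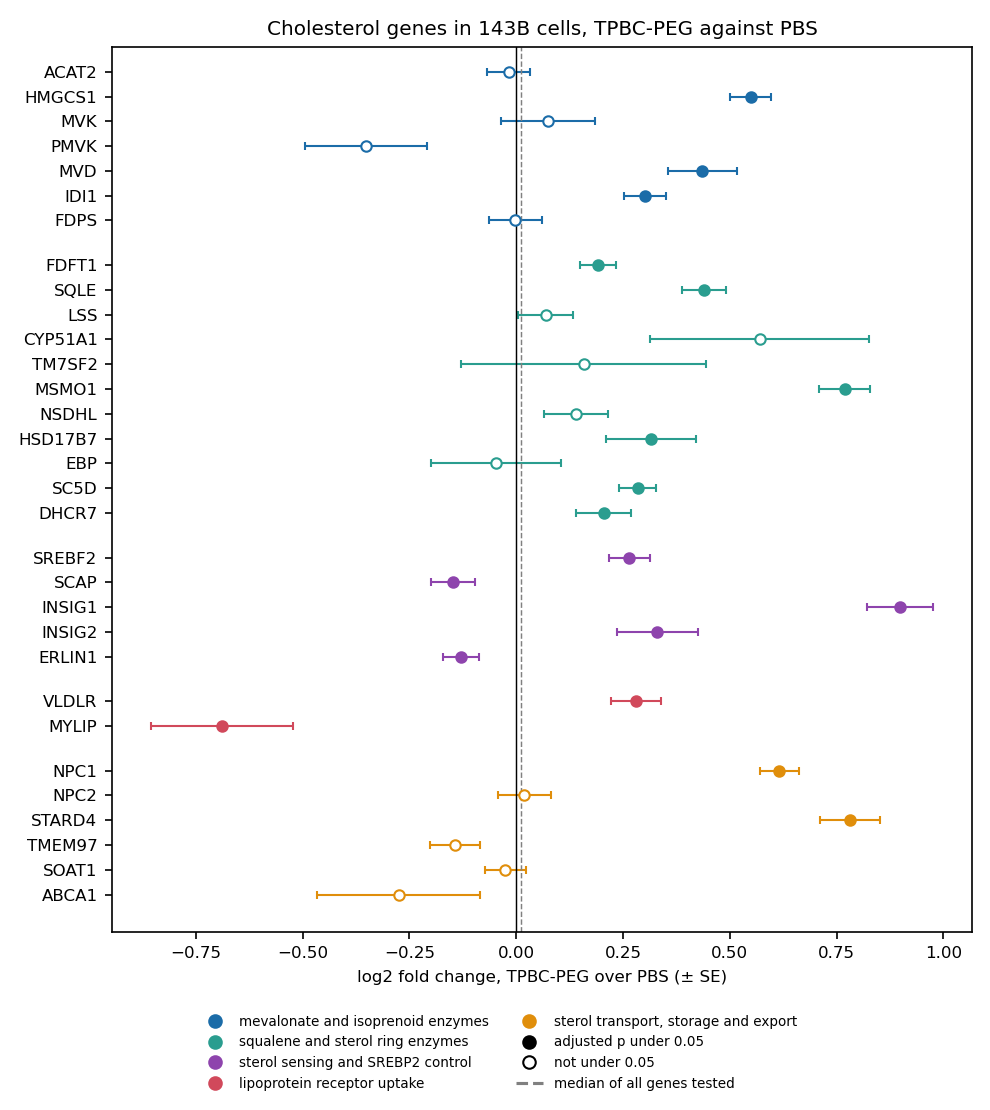
Log2 fold change, TPBC-PEG over PBS, of the 31 genes by role, with the standard error (edgeR, 3 libraries a group). Filled points passed at an adjusted p under 0.05, and the dashed line is the median of all genes tested, 0.011. The points run from -0.69 for MYLIP to 0.90 for INSIG1.

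Among 7 mevalonate and isoprenoid enzymes, 3 rose and 4 did not pass. HMGCS1, which makes HMG-CoA (chromosome 5, 43289395 to 43313512 in GRCh38), stood at 128, 122 and 112 CPM with TPBC-PEG, against 80.3, 85.8 and 81.3 CPM with PBS. The lowest TPBC-PEG library lay above the highest PBS library, and the log2 fold change was 0.55 ± 0.048 (SE; edgeR quasi-likelihood with Benjamini-Hochberg adjustment, adjusted p = 3.39e-13). MVD, which removes carbon dioxide to give isopentenyl diphosphate, had 25.1, 23.6 and 25.5 CPM with TPBC-PEG and 18.0, 18.6 and 18.1 CPM with PBS, a log2 fold change of 0.44 ± 0.080. IDI1, the isomerase of the next step, had 95.0, 94.4 and 87.8 CPM with TPBC-PEG and 78.4, 72.5 and 74.2 CPM with PBS, a log2 fold change of 0.30 ± 0.049. For MVD and IDI1 too the groups did not overlap.

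The kinase steps between HMGCS1 and MVD and the enzymes at the ends of this stretch gave other values. MVK, mevalonate kinase, was at 12.9 ± 1.43 CPM with TPBC-PEG and 12.2 ± 1.61 CPM with PBS (mean ± SD, n = 3), a log2 fold change of 0.074 ± 0.109. PMVK, phosphomevalonate kinase, had 5.96, 6.56 and 6.27 CPM with TPBC-PEG and 9.39, 6.21 and 8.39 CPM with PBS. PBS replicate 2 overlapped the TPBC-PEG libraries, and the log2 fold change of -0.35 ± 0.143 missed the threshold (edgeR quasi-likelihood with Benjamini-Hochberg adjustment, adjusted p = 0.0516). Without PBS replicate 2 PMVK passed as lower, at -0.51 (edgeR quasi-likelihood with Benjamini-Hochberg adjustment, adjusted p = 0.00552). It also passed, among 17 alternatives, with DESeq2 size factors, with a filter of 1 CPM in 3 libraries and with the expression-level trend removed (0.0473, 0.0467 and 0.0214), and its adjusted p ran from 0.00552 to 0.322 over the 16 alternatives other than the test against a 1.5-fold change. FDPS, which makes farnesyl diphosphate, was at 43.2 ± 2.72 CPM with TPBC-PEG and 43.4 ± 0.788 CPM with PBS. ACAT2, which joins acetyl-CoA units at the start, was at 76.5 ± 2.35 CPM with TPBC-PEG and 77.3 ± 3.77 CPM with PBS. For ACAT2, exons of TCP1 and SOD2, on the opposite strand, overlap 52.3% of the exon length, and for FDPS, HMGCS1 and IDI1 the overlap is 18.6%, 14.95% and 14.8%. How strand was treated in counting is not known, so counts in the shared parts cannot be assigned with certainty.

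Among 11 enzymes from squalene to cholesterol, 6 rose and 5 did not pass. MSMO1, which oxidises the methyl groups of sterols (chromosome 4, 165327623 to 165343160 in GRCh38), had 63.3, 66.3 and 62.0 CPM with TPBC-PEG, against 35.7, 39.1 and 37.8 CPM with PBS. The groups stood far apart, and the log2 fold change was 0.77 ± 0.059 (edgeR quasi-likelihood with Benjamini-Hochberg adjustment, adjusted p = 3.26e-15). SQLE, squalene epoxidase and a control point of the pathway, had 86.2, 85.5 and 79.8 CPM with TPBC-PEG and 59.8, 64.0 and 62.0 CPM with PBS. SQLE did not overlap between the groups either, and its log2 fold change was 0.44 ± 0.051. SC5D, a sterol desaturase, had 165, 162 and 145 CPM with TPBC-PEG and 130.0, 127 and 131 CPM with PBS, a log2 fold change of 0.28 ± 0.044. FDFT1, squalene synthase, had 139, 140.1 and 139.8 CPM with TPBC-PEG and 122, 124 and 121 CPM with PBS. Its rise of 0.19 ± 0.041 on the log2 scale was the smallest called, in tightly grouped libraries.

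DHCR7 and HSD17B7 rose with groups that overlapped. DHCR7, the reductase that gives cholesterol in one branch of the pathway, had 56.1, 46.4 and 53.6 CPM with TPBC-PEG and 42.1, 46.0 and 47.2 CPM with PBS, a log2 change of 0.20 ± 0.065 (edgeR quasi-likelihood with Benjamini-Hochberg adjustment, adjusted p = 0.0116). TPBC-PEG replicate 2 lay within the PBS range, and the DHCR7 call was lost without TPBC-PEG replicate 1, TPBC-PEG replicate 3 or PBS replicate 1 (edgeR quasi-likelihood with Benjamini-Hochberg adjustment, adjusted p = 0.139, 0.0606 and 0.115), within a range of 0.00131 to 0.139 over the 16 alternatives other than the test against a 1.5-fold change. HSD17B7, a sterol keto-reductase, had 17.0, 13.7 and 14.5 CPM with TPBC-PEG and 11.0, 13.7 and 11.6 CPM with PBS, a log2 change of 0.32 ± 0.105 (edgeR quasi-likelihood with Benjamini-Hochberg adjustment, adjusted p = 0.0165). That call was lost without TPBC-PEG replicate 1, PBS replicate 1 or PBS replicate 3, and with DESeq2 (Benjamini-Hochberg adjusted p = 0.185, 0.12, 0.0724 and 0.0608, in a range of 0.00478 to 0.185 over the same 16). Rows of HSD17B7 pseudogenes held 8.12% as many counts as HSD17B7, so its reads may be split. LSS, lanosterol synthase, and NSDHL, a sterol dehydrogenase, did not pass, although the groups did not overlap, as LSS was at 37.5 ± 0.933 CPM with TPBC-PEG and 35.8 ± 0.668 CPM with PBS. NSDHL was at 27.0 ± 0.932 CPM with TPBC-PEG and 24.5 ± 1.11 CPM with PBS. EBP, a sterol isomerase, was at 5.65 ± 0.392 CPM with TPBC-PEG and 5.80 ± 0.953 CPM with PBS. TM7SF2, a sterol reductase, was low, at 1.64 ± 0.412 CPM with TPBC-PEG and 1.49 ± 0.145 CPM with PBS.

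CYP51A1, the lanosterol demethylase, had 3.24, 2.27 and 2.19 CPM with TPBC-PEG and 2.14, 1.11 and 1.95 CPM with PBS, from 237 counts in all libraries. The lowest TPBC-PEG value was just above the highest PBS value, and the log2 fold change of 0.57 ± 0.256 did not pass (edgeR quasi-likelihood with Benjamini-Hochberg adjustment, adjusted p = 0.0817). It passed without PBS replicate 1 (edgeR quasi-likelihood with Benjamini-Hochberg adjustment, adjusted p = 0.0474, the lowest of the same 16 alternatives, which reached 0.398). Exons of other genes overlap 83.2% of the CYP51A1 exon length, and the overlapping protein-coding genes ENSG00000285772 and ENSG00000285953 had 0 counts. Rows of CYP51A1 pseudogenes held 13.5% as many counts as CYP51A1, so the low level of CYP51A1 in this table is uncertain.

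**Figure D3:**
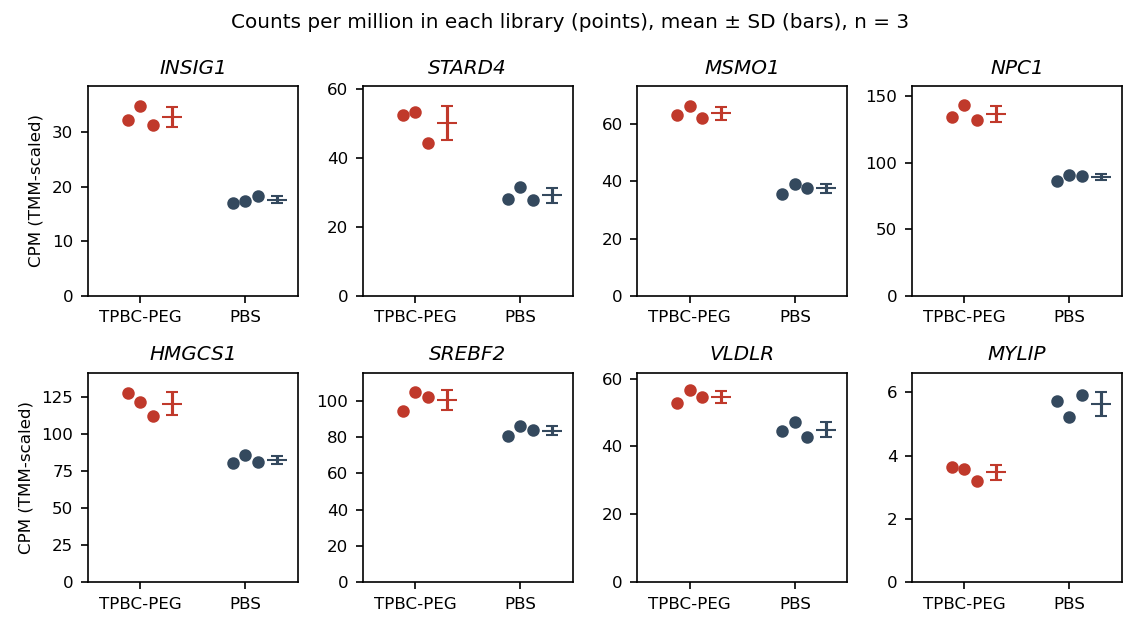
TMM-scaled CPM in each library (points) with mean ± SD (bars, n = 3) for 8 genes, TPBC-PEG left and PBS right, on axes that start at 0. The 8 were picked from the called genes, and the groups do not overlap for any of them. MYLIP is the gene of the 8 that is lower with TPBC-PEG. Over all 31 genes the groups overlap for 10, and they do not overlap for 43.4% of all genes tested.

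All 5 genes that sense sterol or control SREBP2 passed the test, 3 higher and 2 lower, beside 16.2% higher and 16.9% lower of all genes tested. The calls of INSIG2, SCAP and ERLIN1 were lost in alternatives other than the test against a 1.5-fold change, as given below. INSIG1 (chromosome 7, 155297776 to 155310235 in GRCh38) had 32.3, 34.7 and 31.2 CPM with TPBC-PEG, against 17.1, 17.5 and 18.4 CPM with PBS. The level was 1.86-fold higher, a log2 change of 0.90 ± 0.077 (edgeR quasi-likelihood with Benjamini-Hochberg adjustment, adjusted p = 1.56e-13), the largest of the 31. INSIG1 and MSMO1 also passed a test against a 1.5-fold change (edgeR quasi-likelihood with Benjamini-Hochberg adjustment, adjusted p = 0.00226 and 0.0339), and in the other 16 alternatives their adjusted p was at most 1.33e-09 and 1.19e-10. INSIG2, which serves the same hold on SCAP, had 20.3, 17.7 and 16.8 CPM with TPBC-PEG and 15.8, 14.1 and 13.7 CPM with PBS, a log2 fold change of 0.33 ± 0.094. The INSIG2 groups did not overlap, but its call was lost without TPBC-PEG replicate 1 (edgeR quasi-likelihood with Benjamini-Hochberg adjustment, adjusted p = 0.0815, in a range of 0.00179 to 0.0815 over the same 16 alternatives). Within each library, the log2 ratio of INSIG1 to INSIG2 counts was 0.67, 0.97 and 0.89 with TPBC-PEG and 0.11, 0.30 and 0.42 with PBS. The ratio was higher by 0.56 with TPBC-PEG, without overlap (two-sided exact permutation p = 0.1, the smallest p that 3 against 3 libraries allow, and 0.1 when adjusted over 2 ratios).

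SREBF2, which encodes SREBP2, had 94.4, 105 and 102 CPM with TPBC-PEG and 80.7, 86.0 and 84.1 CPM with PBS. The groups did not overlap and the log2 fold change was 0.26 ± 0.048 (edgeR quasi-likelihood with Benjamini-Hochberg adjustment, adjusted p = 1.77e-05). SCAP, the escort of SREBP2, fell, at 64.5, 65.0 and 64.3 CPM with TPBC-PEG and 70.5, 75.0 and 69.4 CPM with PBS, a log2 change of -0.15 ± 0.052 (edgeR quasi-likelihood with Benjamini-Hochberg adjustment, adjusted p = 0.021). The SCAP call was lost in 7 of 17 alternatives, among them those without TPBC-PEG replicate 1, TPBC-PEG replicate 2 or PBS replicate 2 (edgeR quasi-likelihood with Benjamini-Hochberg adjustment, adjusted p = 0.0628, 0.0523 and 0.112) and the removal of a trend with GC content, where the value was -0.093 (0.173, in a range of 0.0162 to 0.173 over the same 16). ERLIN1, an endoplasmic reticulum membrane protein known to restrain SREBP activation, had 118, 120.1 and 119.8 CPM with TPBC-PEG and 131, 131 and 129.7 CPM with PBS, a log2 change of -0.13 ± 0.042 (edgeR quasi-likelihood with Benjamini-Hochberg adjustment, adjusted p = 0.0135). Its groups did not overlap, and the ERLIN1 call was lost with library size alone, with the expression-level trend removed and without TPBC-PEG replicate 1 (edgeR quasi-likelihood with Benjamini-Hochberg adjustment, adjusted p = 0.116, 0.146 and 0.0601, in a range of 0.00133 to 0.146 over the same 16 alternatives).

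The 2 genes of lipoprotein uptake moved in opposite directions. VLDLR, a receptor of triglyceride-rich lipoproteins, had 52.9, 56.5 and 54.4 CPM with TPBC-PEG and 44.7, 47.3 and 42.8 CPM with PBS. The groups did not overlap, and the log2 fold change was 0.28 ± 0.059 (edgeR quasi-likelihood with Benjamini-Hochberg adjustment, adjusted p = 0.000139). MYLIP, a ubiquitin ligase that marks lipoprotein receptors for degradation and a known LXR target (chromosome 6, 16129125 to 16148248 in GRCh38), had 3.65, 3.57 and 3.20 CPM with TPBC-PEG, against 5.74, 5.21 and 5.93 CPM with PBS. It was the largest fall of the 31, at -0.69 ± 0.166 on the log2 scale (edgeR quasi-likelihood with Benjamini-Hochberg adjustment, adjusted p = 0.000909), from 494 counts over all libraries. ABCA1, the cholesterol exporter and another LXR target, had 3.13, 2.80 and 3.51 CPM with TPBC-PEG and 3.86, 3.66 and 3.85 CPM with PBS. All 3 TPBC-PEG values of ABCA1 were below the PBS values, but the log2 fold change of -0.28 ± 0.191 did not pass (edgeR quasi-likelihood with Benjamini-Hochberg adjustment, adjusted p = 0.29).

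Of 6 genes of sterol transport, storage and export, 2 rose and 4 did not pass. NPC1, which moves cholesterol out of lysosomes (chromosome 18, 23506184 to 23586898 in GRCh38), had 135, 143 and 133 CPM with TPBC-PEG, against 86.8, 91.0 and 90.4 CPM with PBS. The groups were well apart, with a log2 change of 0.62 ± 0.045 (edgeR quasi-likelihood with Benjamini-Hochberg adjustment, adjusted p = 7.42e-16), the smallest p of the 31. NPC2, the soluble partner that hands cholesterol to NPC1, had 43.2, 43.2 and 47.1 CPM with TPBC-PEG and 45.7, 41.2 and 44.7 CPM with PBS, and the groups overlapped. The within-library log2 ratio of NPC1 to NPC2 counts was 1.64, 1.73 and 1.49 with TPBC-PEG and 0.92, 1.14 and 1.02 with PBS, a difference of 0.59 (two-sided exact permutation p = 0.1, the smallest possible, and 0.1 when adjusted over 2 ratios). STARD4, which carries sterol through the cytosol, had 52.4, 53.2 and 44.3 CPM with TPBC-PEG and 28.0, 31.6 and 27.8 CPM with PBS. TPBC-PEG replicate 3 was the lowest of its group, still above every PBS library, and the log2 fold change was 0.78 ± 0.070 (edgeR quasi-likelihood with Benjamini-Hochberg adjustment, adjusted p = 1.91e-12).

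SOAT1, which esterifies cholesterol for storage, was at 82.6 ± 1.60 CPM with TPBC-PEG and 84.1 ± 1.97 CPM with PBS. TMEM97, a membrane protein that binds NPC1, had 48.9, 46.3 and 48.9 CPM with TPBC-PEG and 51.3, 51.5 and 56.6 CPM with PBS. Its groups did not overlap, and the log2 fold change of -0.14 ± 0.059 missed the threshold (edgeR quasi-likelihood with Benjamini-Hochberg adjustment, adjusted p = 0.0521). TMEM97 passed as lower in 5 of 17 alternatives, among them those without PBS replicate 1 or PBS replicate 2 (edgeR quasi-likelihood with Benjamini-Hochberg adjustment, adjusted p = 0.0347 and 0.0436, in a range of 0.015 to 0.246 over the same 16). Exons of another gene overlap 11.9% of the TMEM97 exon length.

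Levels of different genes were compared as CPM per kb of exon, with all annotated exons of a gene merged. That length can exceed the length of the transcript in these cells, so the order is approximate. With PBS the order began with FDFT1 at 23.5 ± 0.293, SC5D at 23.3 ± 0.403 and ERLIN1 at 22.5 ± 0.128 (mean ± SD, n = 3), of which FDFT1 and SC5D lay within each other's spread. ABCA1 at 0.334 ± 0.00996, TM7SF2 at 0.436 ± 0.0426 and CYP51A1 at 0.484 ± 0.153 stood at the bottom, though the CYP51A1 level is uncertain. With TPBC-PEG, SC5D at 28.3 ± 1.89, FDFT1 at 26.8 ± 0.125 and HMGCS1 at 25.6 ± 1.69 were on top, and FDFT1 lay within the spread of SC5D. INSIG1 had 8.97 ± 0.490 CPM per kb with TPBC-PEG and 4.83 ± 0.182 with PBS, and INSIG2 4.63 ± 0.458 with TPBC-PEG and 3.68 ± 0.283 with PBS.

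**Figure D4:**
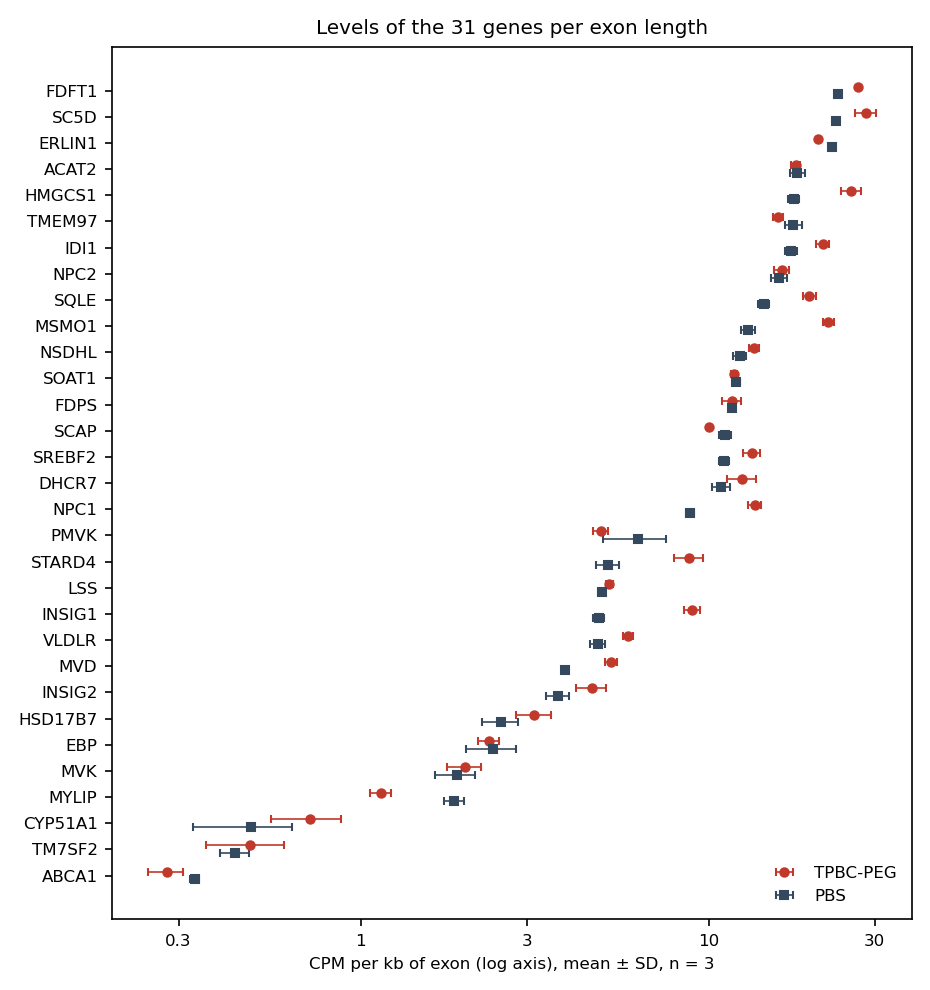
Level of each of the 31 genes as CPM per kb of exon on a log axis, mean ± SD over 3 libraries, TPBC-PEG (circles, upper) and PBS (squares, lower). Genes are ordered by the PBS level, from ABCA1 at 0.334 to FDFT1 at 23.5.

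Related genes outside these 31 gave other counts, beside 16.2% higher and 16.9% lower of all genes tested. Of 15 genes of fatty acid synthesis and SREBP1 control, 6 rose and 3 fell, with a median log2 fold change of 0.030. SREBF1, the gene of the sister factor SREBP1, fell (edgeR quasi-likelihood with Benjamini-Hochberg adjustment, adjusted p = 0.000198). SREBF1 was at 29.6 ± 0.407 CPM with TPBC-PEG and 36.9 ± 1.99 CPM with PBS (SD, n = 3). The other falls were those of FASN and ACLY, at -0.11 and -0.13 on the log2 scale. The fatty acid desaturase genes FADS1 and FADS2 rose, by 0.45 and 0.43 on the log2 scale, as did SCD, ELOVL6, ME1 and LPIN1. Of 13 genes that cleave SREBPs, carry them in COPII vesicles or degrade sterol-regulated proteins, 3 rose, led by the COPII coat gene SEC24D at 0.92 on the log2 scale. Of 14 other genes of sterol transport and ester hydrolysis, 6 rose and 3 fell, with a median of 0.017. Of 12 genes in the non-sterol branches of the mevalonate pathway 11 were tested, of which 1 rose (2 without PBS replicate 1) and 3 fell. Of 10 genes listed together for oxysterols and LXR, 8 were tested, of which 1 fell and 7 did not pass. The fall was EBPL, at -0.20, with groups that overlapped. EBPL is named for its likeness to EBP, and whether its fall bears on oxysterol enzymes or LXR was not tested. The number of falls was 0 without TPBC-PEG replicate 1, TPBC-PEG replicate 2, PBS replicate 1 or PBS replicate 2. It was also 0 with DESeq2 or library size alone. Without TPBC-PEG replicate 3, 1 gene of that list was called higher.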

How the data were processed

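RNA of 143B cells was sequenced in 3 TPBC-PEG and 3 PBS libraries, grouped by sample title. Per the submitters' processing notes, HISAT2 and the GRCh38 build were used. The authors deposited raw read counts per gene (60683 Ensembl rows). Not given in the sources used here are the counting program, its annotation and its strand setting. Symbols came from the gene name table (42013 rows matched), and positions, exon lengths and overlaps from GENCODE release 29 on GRCh38.

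The test was that of edgeR 4.0.16 (R 4.3.3). Its filterByExpr filter set which genes entered (minimum count 10, minimum total 15), with TMM scaling factors. The quasi-likelihood test, with robust estimation, compared the groups with no covariate; Benjamini-Hochberg adjustment ran over all 15846 genes tested. The standard error comes from the F statistic, CPM are TMM-scaled, and within-library ratios used a pseudocount of 0.5. The common biological coefficient of variation was 4.19%, and chi-square per degree of freedom between replicates was 2.26 to 4.26, above the 1 of pure sampling. Without molecular identifiers, reads can be copies of a molecule. Every gene of the list is named. The genes, lists and settings were chosen with earlier results of these data known. Some genes of the pathway are not reported here. The script was checked on simulated data. Alternatives were other scalings, filters and tests (DESeq2 1.42.0, limma 3.58.1 with voom), a 1.5-fold threshold, the replicate number as a block, trends removed by lowess (span 0.3) and each library left out.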

Additional observations from a re-analysis of the deposited data

How the results depend on the processing

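Of the 18 calls among the 31 genes, 13 held in all alternatives other than the test against a 1.5-fold change, 2 of them in all 17, and no called gene changed sign. That test called 2 genes higher and 0 lower, and over all genes 131 higher and 14 lower. The 15 rises became 12 to 15 when each library was left out, and the 3 falls became 1 to 4, with 1 without TPBC-PEG replicate 1. The falls numbered 5 with DESeq2 size factors, 5 with a filter of 1 CPM in 3 libraries and 1 with library size alone. With library size alone the calls over all genes were 3213 higher and 1971 lower, against 2574 and 2682 with TMM; the causes were not tested. The median log2 fold change of the 31 genes was 0.23 with library size alone, 0.21 with the expression-level trend removed, 0.22 with the GC trend removed and 0.18 to 0.20 with each library left out.

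The labels do not say that a replicate number marks a shared batch, and deviations of same-numbered libraries correlated weakly or not at all (Pearson's r across genes of 0.0034, 0.065 and -0.015), so the numbers were not taken as pairs. With the replicate number as a block, 15 of the 31 genes were higher and 3 lower. Depth limits CYP51A1, TM7SF2 and ABCA1, whose standard errors are the largest of the 31.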
